A study of Sus scrofa with 6 samples.

Results

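The genes described here are the translation initiation and elongation factors of the pig, the proteins that bring messenger RNA, initiator transfer RNA and ribosome together and then move the ribosome along the message. They were taken as all probe sets whose single gene symbol in the array's annotation starts with EIF or EEF, leaving out EIF2AK2, which gave 63 probe sets of 41 genes, out of 23999 tested probe sets with 6765 genes named by a single symbol. The signal was above the median probe set of the array for 57 of the 63 (40 genes). The 6 below it were EIF1AY and the dimmest probe set of EIF3D, EIF4E2, EIF4EBP2, EIF4G1 and EIF5B. Another 6 probe sets whose annotation joins EIF2S3, EIF3G or EIF4EBP3 with a different gene were left out. EEF2, EIF4EBP1, EIF5 and the other eIF2 kinases were not analysed here.

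The arrays came from 3 weaned Landrace x Large White crossbred sows. In each sow 1 oviduct received spermatozoa of pooled boar semen by laparoscopy, and the contralateral oviduct received only the BTS diluent. On day 6 the inseminated side held embryos at the blastocyst stage and the other side held unfertilised oocytes, so that both uterine horns shared the sow, her hormones and the surgery. Epithelial cells were scraped from the first 10 cm of each horn next to the utero-tubal junction, and the RNA of each horn was hybridised to 1 Affymetrix porcine array, giving 3 arrays per group. Insemination and the presence of embryos cannot be told apart in this design, as only the embryo side received spermatozoa. The question asked of the factors was whether their messenger RNA differed between the horn with embryos and the horn with oocytes.

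Translation starts when eIF1, eIF1A, eIF3 and the ternary complex of eIF2, GTP and initiator methionyl-tRNA load the small ribosomal subunit, which then joins a message prepared by the cap-binding complex eIF4F. eIF2 is recharged with GTP by eIF2B, and eIF4E, the cap-binding part of eIF4F, is held back by the 4E-binding proteins under the control of mTOR. During elongation eEF1A delivers aminoacyl-tRNA and is recharged by the eEF1B subunits. The uterine epithelium makes and secretes large amounts of protein around the arrival of the embryo, under ovarian hormones.

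Scraped cells of this kind are a mixture, and fewer cells of a type and less RNA per cell cannot be told apart in such samples. All 6 epithelial markers listed were measured, and their summed signal was 7839 to 10140 with oocytes and 7617 to 10404 with embryos. The summed signal of 6 of 7 smooth muscle markers was 564.5 to 2276 with oocytes and 684.1 to 1555 with embryos, and that of 5 of 6 stromal markers 3305 to 7022 and 3220 to 6559, with both horns of sow 1 the highest for both cell types. For 6 of 7 leukocyte markers the sum was 78.7 to 152.1 and 105.8 to 133.8, for 2 of 3 erythrocyte markers 361.8 to 966.0 and 423.4 to 941.7, and for 4 of 4 endothelial markers 186.6 to 240.3 and 181.4 to 272.3. Of 5 ciliated cell markers 2 were measured (CAPS and TEKT1), and both were higher with embryos in 3 of 3 sows. Their sums were 57.7, 43.2 and 54.8 in the oocyte horns of sows 1, 2 and 3 and 81.0, 54.5 and 66.3 in the embryo horns, and the part of ciliated cells in the factor values was not tested. None of the markers passed the test between the groups. The 5′/3′ signal ratio of the GAPDH and actin control probe sets, a sign of RNA integrity and labelling, averaged -2.41 ± 0.50 (SD, n = 3) on the log2 scale in the oocyte horns, against -2.91 ± 0.57 (SD, n = 3) in the embryo horns. It was lower with embryos in 3 of 3 sows, by 0.55, 0.74 and 0.19 on the log2 scale. The exact two-sided permutation p between the groups was 0.4, where 0.1 is the smallest p that 3 against 3 arrays allow. That permutation does not use the pairing of the horns by sow, and a paired p is given further below.

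None of the 63 probe sets differed between the groups after adjustment over all 23999 (limma, smallest adjusted p = 1.00; 0% of all probe sets passed). With the sow as a block the count was also 0, with a smallest adjusted p = 0.347, and 0% of all probe sets passed there too. At an unadjusted p under 0.05, 1 probe set was lower with embryos (EIF1AX) and 0 were higher, against 1.59% and 1.3% of all probe sets. With the block 5 were lower (both probe sets of EIF1AX, and EIF3M, EIF4A3 and EIF3I) and 0 were higher, against 4.95% lower and 3.75% higher among all probe sets. The 5 of 63 lower are 7.94%, a share that was not tested against the 4.95%. Among probe sets above the median signal the share was 8.77% of the members and 6.88% of all.

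The measured differences were small. After normalization the 57 probe sets above the median signal lay between -0.34 and 0.24 on the log2 scale (embryos minus oocytes), with a median absolute difference of 0.074, where all probe sets above that signal had 0.11. The 95% interval of the difference was a median of 0.33 wide to each side in these 57, and it lay within 1 log2 unit of 0 for 56 of them and within 0.5 for 35. The range between the 3 sow means exceeded the difference between the groups in 59 of 63 probe sets (93.7%, against 83.7% of all probe sets), with a median range of 0.25. Above the median signal it did so in 94.7% of the members and 87.6% of all. A range of 3 sow means tends to exceed the difference between group means without any sow effect, so these shares do not measure one.

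The factors lay slightly more often on the lower side with embryos. The mean was lower in 43 and higher in 20 of the 63, or 68.3% lower against 49.2% of all probe sets, and the median difference was -0.054 against 0.0053 for all. Lower in all 3 sows were 11 probe sets (17.5% of the members against 14.8% of all), and higher in all 3 sows were 3 (4.76% against 14.9%), namely EIF3A, EIF5A and EEF1AKMT1. In the signals as deposited these counts were 11 and 2, without EIF3A. After normalization the 3 embryo arrays lay entirely below the 3 oocyte arrays in 2 of the 63 probe sets, of EIF1AX and EIF3I (3.98% of all). They lay entirely above in 1 of the 63, of EIF3A (4.03% of all). These counts were not tested against the shares of all probe sets. The median difference within sows was -0.12, 0.0025 and -0.045 in sows 1, 2 and 3, with 42, 30 and 36 of the 63 probe sets lower. These are 66.7%, 47.6% and 57.1%, against 50.4%, 49.3% and 49.6% of all probe sets in the same sows. Relative to each probe set's own mean, the oocyte horn of sow 1 had a median of 0.13 with 47 of 63 probe sets above 0, while the other arrays had medians of -0.052 to 0.026. Without that array 31 of the 63 were lower (49.2%, against 50.8% of all), with a median of 0.0016. Without both horns of sow 1, a setting chosen after seeing the data, 37 were lower (58.7%, against 48.9% of all), with a median of -0.018. The oocyte horn of sow 1 also had the highest smooth muscle and stromal sums. Its control 5′/3′ ratios were the highest as well, at 0.355 for GAPDH and 0.219 for actin. The other arrays reached at most 0.243 and 0.149. The part of these cells, or of this ratio, in the members' values was not tested.

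**Figure D1:**
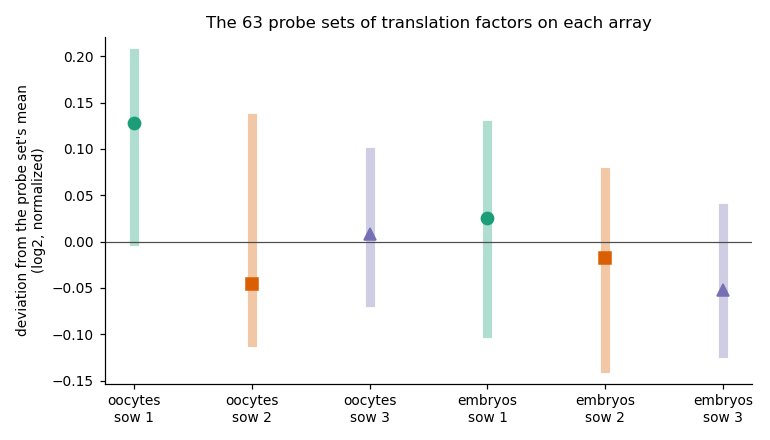
Deviation of the 63 translation factor probe sets from their own mean over the 6 arrays (vertical axis, log2, normalized), for each horn and sow (horizontal axis). Points are medians and bars run from the lower to the upper quartile. The oocyte horn of sow 1 has the highest median, 0.13, and the other arrays lie between -0.052 and 0.026.

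**Figure D2:**
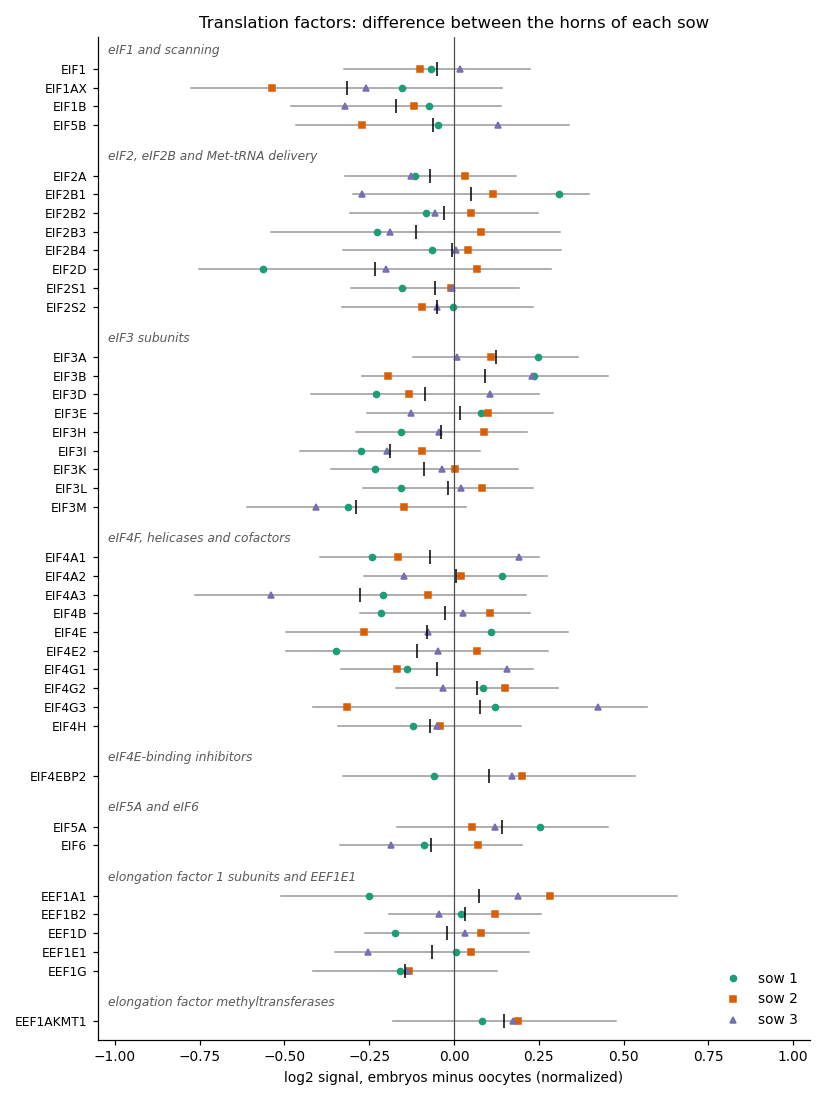
Difference in log2 signal between the horns of each sow (coloured points, embryos minus oocytes) at the brightest probe set of the 40 genes above the median signal, grouped by role. The black tick is the estimate, and the grey line is its 95% interval from the fit without the block. Every interval crosses 0, and EIF1AX, EIF3M and EIF4A3 have the lowest estimates.

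The first group comprised the factors that open the small subunit and scan for the start codon, with 5 genes on 9 probe sets (median difference -0.077). EIF1AX encodes eIF1A, which with eIF1 keeps the scanning complex open. The probe set with the smaller p gave signals of 355.9, 415.6 and 327.8 in the oocyte horns of sows 1, 2 and 3 and of 317.4, 269.1 and 281.1 in their embryo horns. The embryo horn was lower in each sow, at 0.892, 0.647 and 0.857 times the oocyte horn, and the highest embryo array stayed below the lowest oocyte array. The difference was -0.34 on the log2 scale (SE 0.14, 95% interval -0.67 to -0.019, limma unadjusted p = 0.0404, adjusted p = 1.00), with an unadjusted p = 0.00839 and adjusted p = 0.417 with the sow as a block. The other EIF1AX probe set had signals of 578.7, 541.7 and 417.8 with oocytes and 524.2, 376.2 and 345.8 with embryos. The groups overlapped there because sow 1 was high in both horns, yet each embryo horn was again the lower of its pair (-0.32, SE 0.20, limma unadjusted p = 0.152, or 0.00599 with the block). In both probe sets the widest gap was in sow 2, with ratios of 0.647 and 0.694.

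EIF1AY, the Y-linked relative of EIF1AX, had signals of only 0.9, 0.7 and 4.4 with oocytes and 0.9, 5.2 and 0.4 with embryos. The sows carry no Y chromosome, and values of this size have no order between horns. Probe sequences were not used here, so cross-hybridisation between EIF1AX and EIF1AY was not tested.

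EIF1B, a close relative of EIF1, had 344.9, 306.4 and 374.9 with oocytes and 330.7, 284.3 and 298.1 with embryos. It was lower with embryos in 3 of 3 sows with overlapping groups (-0.17, SE 0.14, limma unadjusted p = 0.242). EIF1 itself, the factor that guards start codon choice, had 3177.9, 2806.5 and 2734.1 with oocytes and 3053.3, 2612.8 and 2712.0 with embryos. Its groups overlapped (-0.050, SE 0.12, limma unadjusted p = 0.687), and its other probe set gave -0.077 (SE 0.13). For EIF5B, the GTPase that joins the large subunit, the 2 probe sets above the median signal gave -0.063 and 0.23, and the dim probe set, with signals of 0.9 to 13.5, gave 1.09 (SE 0.97).

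The eIF2 and eIF2B group held 8 genes on 10 probe sets, of which 9 had a lower mean with embryos and none passed an unadjusted p under 0.05 in either fit (median difference -0.055, lowest -0.23). EIF2S1 encodes eIF2 alpha, the subunit that stress kinases phosphorylate to shut down initiation. It had 486.5, 460.9 and 456.2 with oocytes and 440.9, 460.8 and 450.7 with embryos. Only sow 1 showed a visible gap, and the difference was -0.056 (SE 0.11, 95% interval -0.30 to 0.19). EIF2S2, the beta subunit, gave -0.049 (SE 0.12), from signals of 473.3 to 520.8 with oocytes and 445.8 to 521.6 with embryos.

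EIF2D, which can place initiator tRNA without eIF2, had the lowest estimate of the group. It had 68.1, 69.0 and 78.0 with oocytes and 46.8, 71.0 and 68.7 with embryos, so the gap lay mainly in sow 1 (-0.23, SE 0.23, limma unadjusted p = 0.336). EIF2A, the separate protein that also binds initiator tRNA, had 710.5, 649.1 and 673.3 with oocytes and 660.8, 667.9 and 609.7 with embryos (-0.070, SE 0.11). Among the eIF2B subunits, which recharge eIF2 with GTP, EIF2B3 had 107.5, 128.6 and 132.8 with oocytes and 92.8, 135.0 and 117.1 with embryos (-0.11, SE 0.19). EIF2B2 and EIF2B4 gave -0.030 and -0.0059, and the probe sets of EIF2B1 gave 0.051 and -0.054. The horns of sow 2 were reversed relative to those of sow 1 for EIF2D, EIF2A and EIF2B3.

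Of eIF3, the large scaffold that holds the initiation complex on the small subunit, 9 subunits were read by 11 probe sets (median difference -0.034, range -0.29 to 0.12). EIF3M had 950.7, 738.2 and 896.9 with oocytes and 771.6, 670.3 and 668.7 with embryos at its brightest probe set. Each embryo horn was the lower of its pair, at 0.812, 0.908 and 0.746 times the oocyte horn, while the groups overlapped through the low oocyte horn of sow 2. The difference was -0.29 (SE 0.14, limma unadjusted p = 0.0736), and with the block the unadjusted p = 0.00412 was the smallest of all members (adjusted p = 0.347). The other EIF3M probe set did not show this, with 260.2, 262.5 and 284.0 with oocytes and 308.8, 264.3 and 223.4 with embryos (-0.034, SE 0.15, limma unadjusted p = 0.827).

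EIF3I, the WD-repeat subunit, had 525.6, 457.1 and 498.9 with oocytes and 438.2, 431.2 and 431.4 with embryos. The embryo arrays lay close together (SD 3.98 against 34.5 with oocytes) and all of them below the oocyte arrays, before and after normalization. The difference was -0.19 (SE 0.12, limma unadjusted p = 0.142, or 0.0374 with the block, adjusted p = 1.00 without it). EIF3A, the largest subunit, leaned the other way. Its signals were 1084.6, 1275.8 and 1307.2 with oocytes and 1298.8, 1380.7 and 1295.3 with embryos, which overlap as deposited and lie apart only after normalization (0.12, SE 0.11, limma unadjusted p = 0.279). The remaining subunits stayed between -0.088 and 0.091. They were EIF3B, EIF3D, EIF3E, EIF3H, EIF3K and EIF3L, and EIF3E, for example, had 1954.7, 1713.8 and 1932.2 with oocytes and 2078.8, 1838.0 and 1736.9 with embryos.

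**Figure D3:**
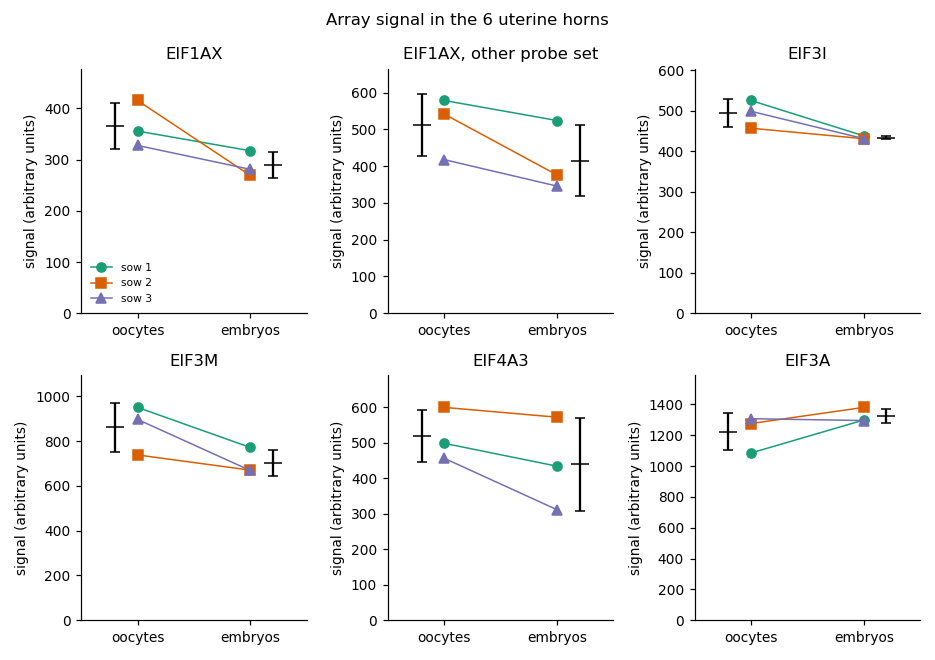
Array signal as deposited (vertical axes from 0, arbitrary units) with oocytes and with embryos at 5 genes, EIF1AX at both of its probe sets. Lines join the horns of a sow, and black bars show the mean ± SD of 3 arrays. Embryo horns lie below oocyte horns in every sow for EIF1AX, EIF3I, EIF4A3 and the brighter probe set of EIF3M, the one drawn. The other EIF3M probe set (not drawn) was 1.19 and 1.01 times the oocyte signal in sows 1 and 2. EIF3A is higher with embryos in sows 1 and 2 and 0.991 times the oocyte signal in sow 3.

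The eIF4F complex and its helpers were read by 15 probe sets of 10 genes (median difference -0.072). EIF4A3 encodes the DEAD-box helicase of the exon junction complex, a relative of the eIF4A helicases of translation. It had 498.9, 600.3 and 456.7 with oocytes and 434.4, 572.6 and 311.5 with embryos. Each embryo horn was the lower, with the widest gap in sow 3 (0.682 times the oocyte horn), and the sows differed by more than the horns (-0.28, SE 0.21, limma unadjusted p = 0.232, or 0.0176 with the block). EIF4A1 and EIF4A2, the helicases that unwind the message for scanning, gave -0.072 (SE 0.14) and 0.0047 (SE 0.12). Their signals were 541.0 to 724.0 and 3438.1 to 4480.3 over the 6 arrays.

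EIF4E, the cap-binding protein, had 74.3, 71.3 and 69.7 with oocytes and 81.3, 58.3 and 66.8 with embryos. The embryo horns lay on both sides of the oocyte horns (-0.079, SE 0.18, 95% interval -0.49 to 0.34). EIF4E2, a cap-binding relative linked to repression, had 92.6, 79.0 and 90.9 with oocytes and 73.7, 81.8 and 88.8 with embryos (-0.11, SE 0.17). Its dim probe set, with signals of 1.6 to 26.0, gave the lowest value of all members, -1.15 (SE 0.95). Of the scaffolds, EIF4G1 and EIF4G3 gave -0.050 and 0.076, and EIF4G2, which supports cap-independent initiation, had 2729.5, 2507.3 and 2795.8 with oocytes and 2919.3, 2781.4 and 2675.1 with embryos (0.068, SE 0.10, 95% interval -0.17 to 0.31). The helicase cofactors EIF4B and EIF4H gave -0.028 and -0.071 at their brightest probe sets.

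Of the eIF4E-binding inhibitors EIF4EBP2 was the member read, by 5 probe sets with differences of -0.29 to 0.73. The brightest had 269.0, 287.8 and 371.0 with oocytes and 260.1, 333.0 and 415.0 with embryos (0.10, SE 0.19, limma unadjusted p = 0.597). Sow 3 was the highest in both horns, and the range between sow means, 0.52, was wider than the difference.

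The factors eIF5A and eIF6 were read by 3 probe sets. EIF5A encodes a hypusine-bearing protein that helps ribosomes over difficult peptide bonds. Its brighter probe set had 603.0, 597.3 and 725.3 with oocytes and 724.4, 623.1 and 780.2 with embryos. The embryo horn was higher in 3 of 3 sows with overlapping groups (0.14, SE 0.14, limma unadjusted p = 0.323). The other probe set had 318.2, 158.9 and 206.4 with oocytes and 245.7, 114.9 and 225.6 with embryos, which is lower in sows 1 and 2 (-0.24, SE 0.34). EIF6, which keeps free large subunits apart from small ones, had 336.0, 314.0 and 342.4 with oocytes and 318.9, 331.8 and 299.3 with embryos (-0.067, SE 0.12).

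Probe sets of a gene did not always lie on the same side of 0, and whether they differed from each other was not tested. For EIF2B1 the differences on the 2 sides were 0.051 (SE 0.15) and -0.054 (SE 0.37). Of the 16 genes with several probe sets, 9 had all differences on the same side of 0, and 7 had differences on both sides (EEF1A1, EIF2B1, EIF3D, EIF4E2, EIF4EBP2, EIF5A and EIF5B). EIF1AX was the gene among the 16 in which every probe set was lower by more than 0.3.

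**Figure D4:**
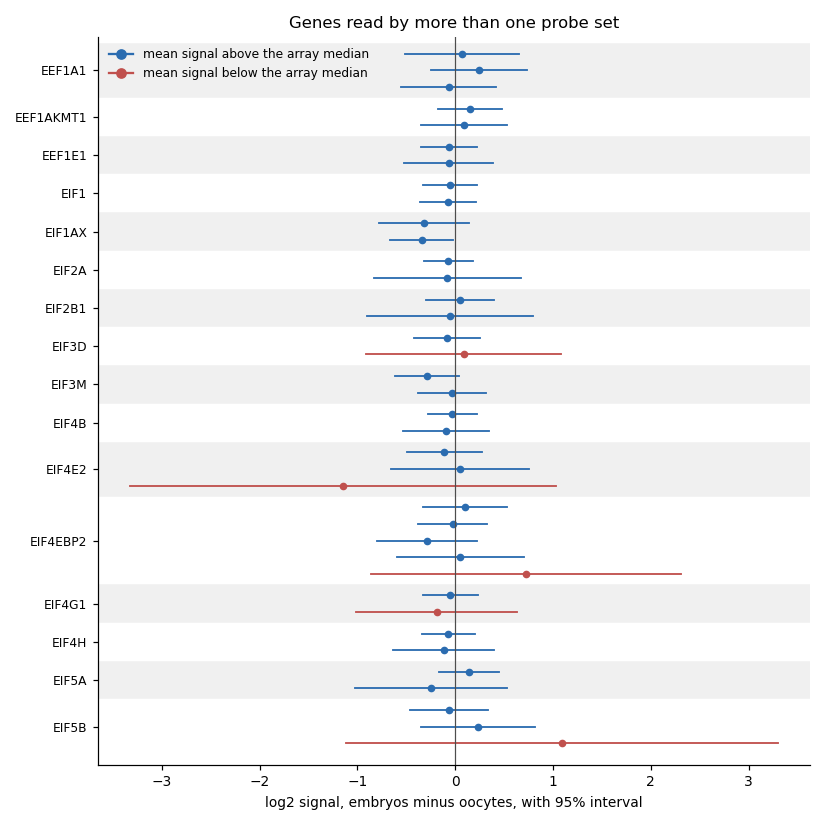
Difference in log2 signal (embryos minus oocytes, points) at every probe set of the 16 genes read by more than 1 probe set. Lines are 95% intervals from the fit without the block. The widest intervals belong to the probe sets of EIF4E2, EIF4EBP2 and EIF5B below the median signal of the array (red). Only the lower of the EIF1AX probe sets has a drawn interval that excludes 0. With the sow as a block (not drawn), the intervals of both EIF1AX probe sets excluded 0, at -0.57 to -0.11 and -0.52 to -0.11. That of the brighter EIF3M probe set did so too, at -0.46 to -0.12.

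The elongation factor 1 group held 5 genes on 8 probe sets, namely 4 subunits and EEF1E1. None had an unadjusted p under 0.05 in either fit (median difference -0.042, range -0.14 to 0.24). EEF1G, the gamma subunit of the exchange complex, had 4563.6, 3992.1 and 3924.4 with oocytes and 4111.6, 3630.3 and 3484.6 with embryos. The ratio between horns was alike in the 3 sows, at 0.901, 0.909 and 0.888, while sow 1 was above the others in both horns. The difference was -0.14 (SE 0.12, limma unadjusted p = 0.260, or 0.0556 with the block). EEF1B2, the beta subunit, had 5556.5, 5344.7 and 5478.7 with oocytes and 5671.8, 5778.1 and 5176.5 with embryos (0.032, SE 0.098, 95% interval -0.19 to 0.26). EEF1D, the delta subunit, gave -0.020 (SE 0.11). EEF1E1, which despite its name is a scaffold protein of the aminoacyl-tRNA synthetase complex, had 304.2, 287.6 and 319.5 with oocytes and 308.3, 299.8 and 266.8 with embryos (-0.065, SE 0.13).

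EEF1A1, the carrier of aminoacyl-tRNA, had 136.2, 187.2 and 132.8 with oocytes and 115.6, 227.5 and 151.7 with embryos at its brightest probe set among the members. Sow 2 was the highest in both horns (0.074, SE 0.26), and the other probe sets gave 0.24 and -0.066. The array also holds control probe sets for EF1a along the length of the message, which were not tested. At the middle of the message they read 8600.6, 7890.6 and 7715.0 in the oocyte horns and 8889.8, 7073.6 and 7221.8 in the embryo horns. These signals were far above those of the EEF1A1 probe sets among the members. How much of the EEF1A1 message the members read was not tested. The 3′ end read 6718.5, 6234.9 and 6098.7 in the oocyte horns and 7419.2, 6236.2 and 5948.3 in the embryo horns. The 5′ end read 8556.2, 7077.9 and 6975.5 in the oocyte horns and 8290.6, 5431.3 and 6556.4 in the embryo horns, lower with embryos in each sow. The 5′/3′ ratio of the EF1a message was thus 1.27, 1.14 and 1.14 with oocytes and 1.12, 0.871 and 1.10 with embryos, lower with embryos in 3 of 3 sows, as it was for GAPDH and actin. The distance of each member's probes from the 3′ end was not used, and the part of this ratio in the members' differences was not tested.

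**Figure D5:**
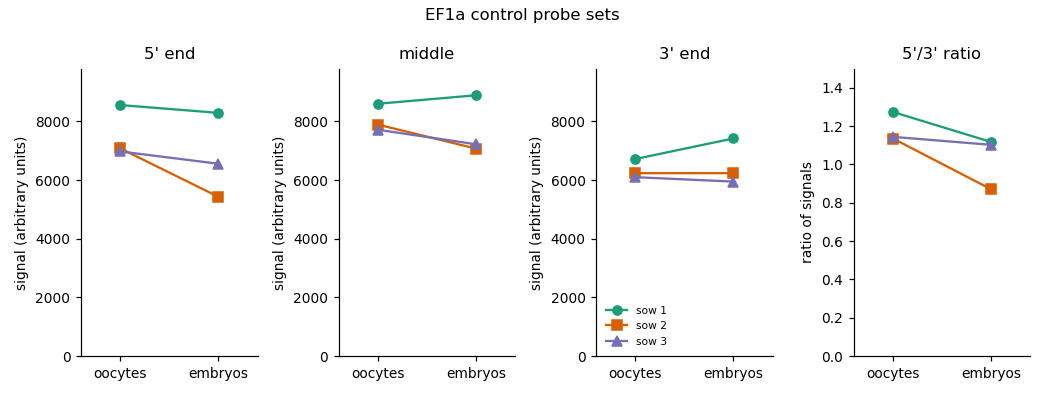
Signal of the EF1a control probe sets at the 5′ end, the middle and the 3′ end of the message (arbitrary units, axes from 0) and the 5′/3′ ratio, with oocytes and embryos; lines join the horns of a sow. The 5′/3′ ratio is lower with embryos in each sow, from 1.27 to 1.12, 1.14 to 0.871 and 1.14 to 1.10.

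EEF1AKMT1, a lysine methyltransferase of eEF1A, had 315.6, 276.7 and 254.3 with oocytes and 336.8, 317.4 and 285.6 with embryos. It was higher with embryos in 3 of 3 sows with overlapping groups (0.15, SE 0.14, limma unadjusted p = 0.329), and its other probe set gave 0.091 (SE 0.19).

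For 66 further genes of translation and its control, the brightest probe set was taken. Of these, 0 passed the adjusted test and 0 had an unadjusted p under 0.05. The mean with embryos was higher in 33 and lower in 33, where 29 of the 41 factor genes were lower on the same basis. With the block 2 were higher and 1 was lower at an unadjusted p under 0.05. The 5 lists differed, and among 19 genes of mTOR and MNK signalling 14 had a lower and 5 a higher mean (73.7% lower, median difference -0.073). The 2 genes of smallest unadjusted p in that list, TSC1 and SESN1, were among the higher ones. TSC1, a brake on mTOR, had 17.3, 13.2 and 7.9 with oocytes and 30.8, 20.0 and 18.7 with embryos. All embryo arrays lay above the oocyte arrays, as in 4.03% of all probe sets, at signals under the array median. The difference was 0.87 (SE 0.40, limma unadjusted p = 0.0560, or 0.0373 with the block). SESN1, a stress-induced mTOR inhibitor, had 104.7, 119.5 and 112.1 with oocytes and 156.2, 168.5 and 117.2 with embryos (0.37, SE 0.18, limma unadjusted p = 0.0682, or 0.0156 with the block). Among the 14 genes with a lower mean were TSC2 (-0.12, SE 0.25) and PRKAA1 (-0.43, SE 0.26, limma unadjusted p = 0.133). PRKAA1 was lower with embryos in each sow. Whether mTOR signalling differed between the horns was not tested.

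The 13 genes of the integrated stress response, which phosphorylated eIF2 alpha sets off, had a median difference of 0.016. ATF3, a stress transcription factor, had 93.9, 46.2 and 38.9 with oocytes and 82.0, 68.2 and 74.8 with embryos, lower in sow 1 and higher in sows 2 and 3 (0.43, SE 0.31, 95% interval -0.28 to 1.14). IMPACT, an inhibitor of the kinase GCN2, gave 0.18 (SE 0.19). The 17 genes of the aminoacyl-tRNA synthetases and their scaffold had a median of 0.034. Of these DARS, the aspartate enzyme, had 138.7, 111.9 and 116.5 with oocytes and 135.9, 70.1 and 76.9 with embryos, with the gap in sows 2 and 3 (-0.44, SE 0.25, limma unadjusted p = 0.120, or 0.0132 with the block), and MARS, the methionine enzyme, gave 0.14 (SE 0.16).

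For 11 other cytosolic factors the median was 0.0016, with 0.19 (SE 0.13) for BZW2, an eIF5 mimic, and -0.16 (SE 0.13) for PABPC1, the poly(A)-binding protein. For 6 mitochondrial factors it was 0.031, with -0.60 (SE 0.40) for MTRF1, a mitochondrial release factor, and 0.21 (SE 0.21) for GFM1, the mitochondrial elongation factor G1.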

How the data were processed

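Signals of 6 arrays, 3 per group, were deposited as intensity values per probe set on a linear scale, made by the authors with MAS5 5.1 (submitters' processing notes) and scaled to a common trimmed mean (100.02 without the highest and lowest 2%). Nothing in these values shows the Lowess step that the methods describe, and detection calls were not used. Signals under 0.1 were set to 0.1, log2 values were normalized by cyclic loess, and 124 control probe sets were removed. The 23999 other probe sets were fitted with limma 3.58.1 (R 4.3.3, with group, variance trend and Benjamini-Hochberg at 0.05). The fit without the block was first tested on simulated log2 values. The floor, the normalization and the block were not part of that test. Figures used matplotlib 3.10.9 and the exact test scipy 1.17.1 (Python 3.11.15). The number of arrays limits the precision.

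The replicate number was taken as the sow, since the labels number both horns 1 to 3 and the per-animal ratios of the methods' worked example equal those of same-numbered arrays. The 2 horns of a sow also deviated together from the averages of their groups (r = 0.207, 0.173 and 0.100 over probe sets). The second fit added the sow as a blocking term.

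Gene symbols are those of the array annotation, and 40 of the 41 matched a current gene table, unchanged. The members, the role lists and the tests were chosen with earlier results of these data known. Named were up to 3 genes of smallest p in each role list, probe sets with groups apart, a fixed set of core genes, the EF1a controls, up to 2 genes in each of the 5 further lists and the probe set the study pairs with EEF1G, and other members are given by range or value. The brightest probe set stood for a gene. Alternatives were the deposited scale, quantile and median normalization, an added 32, a signal filter, no variance trend, the block and leaving out arrays.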

Additional observations from a re-analysis of the deposited data

How the results depend on the processing

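No translation factor passed the adjusted test under any alternative (smallest adjusted p 0.347, with the sow as a block). The number at an unadjusted p under 0.05 was 1, became 0 with scaling to the same median and 0 without the variance trend, and 5 with the sow as a replicate block. Leaving out 1 array gave 0 to 3, with 0 without oocyte replicate 1 or embryo replicate 3, 2 without embryo replicate 2 and 3 without embryo replicate 1. Leaving out both horns of a sow, chosen after seeing the data, gave 2, 0 and 0 for sows 1, 2 and 3. The median difference of the factors ranged from -0.074 to 0.0016 when arrays or sows were left out, above 0 without oocyte replicate 1, and the number with a lower mean from 31 (without that array) to 44 of 63. Of 299 values for the named probe sets under the alternatives, 291 had the main direction and 8 did not, all 8 on leaving out 1 array. The 291 include the signal filter, the fit without variance trend and the block. These leave each difference as in the main fit, so their direction could not change. Those ranges were -0.13 to 0.032 for EIF1, -0.19 to 0.29 for EEF1A1, -0.25 to 0.032 for EIF2B3, -0.19 to 0.012 for EIF4E, -0.057 to 0.26 for EIF4EBP2 and -0.12 to 0.0026 for EEF1E1, and the cause was not tested. Both EIF1AX probe sets stayed lower throughout, at -0.43 to -0.25 and -0.52 to -0.19. The control 5′/3′ ratio stayed lower, at -0.75 to -0.18. Paired by sow its exact two-sided sign-flip p was 0.25, which is the smallest p that 3 pairs allow. Whether the 6 probe sets under the median signal lie above background was not tested.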

Other observations

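A probe set without a symbol in the annotation, which the study's list of altered transcripts pairs with human EEF1G, was not counted among the members. It read 839.8, 1096.7 and 722.1 in the oocyte horns and 1024.8, 1251.4 and 809.2 in the embryo horns. Each embryo horn was the higher of its pair, at 1.22, 1.14 and 1.12 times the oocyte horn, while the groups overlapped (0.21 on the log2 scale, SE 0.19, limma unadjusted p = 0.298, or 0.0118 with the sow as a block, adjusted p = 0.443). At the probe set that the annotation names EEF1G, the embryo horn was the lower in each sow. The study chose the first probe set on these same arrays, so its direction there is not independent evidence. The paper describes most of its altered transcripts as lower with blastocysts, and its direction for this probe set was not compared here. Whether both probe sets read the same message was not tested.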
